A study of Mus musculus with 3 samples.

Results

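Isolated regions are the tiled stretches of the mouse autosomes that stand alone on the array, with the midpoint of no other tiled region within 250 kb on either side. A tiled region is a run of at least 3 probes with steps of at most 500 bp between probe starts. By this rule 581 of 28880 tiled regions were isolated (2.01%, or 2.10% of the 27675 regions on chromosomes 1 to 19), and the remaining 27094 autosomal regions served for comparison. The study measured where 5-methylcytosine lies around tiled sites in frontal cortex, in naive C57BL/6 males aged 2 months. There was 1 group of 3 arrays (Cortex Replicate 1, 2 and 3). Each array set DNA captured with an antibody against 5-methylcytosine (bound, Cy5) against input DNA (Cy3) from a pool of 3 mice, always with the same dyes. No treated or mutant group was used, every array holds tissue of mixed cell types, and the antibody, per the labels, does not bind hydroxymethylated DNA. The titles number the arrays 1 to 3 but the descriptions give all of them the same number, so it is not certain that the spread between arrays is that between separate pools.

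In mammalian DNA, methyl groups sit mainly on cytosines that precede guanine. Most such sites in the genome are methylated, whereas dense clusters of them at gene starts, the CpG islands, usually are not, and methylation often rises on moving away from such a start. An antibody capture of methylated DNA recovers fragments in proportion to the methylated sites they hold, so a stretch with few such sites gives little bound DNA whether it is methylated or not. A level below means the log2 ratio of bound to input DNA minus that of the array's median probe, so 0 is that median and not a methylation percentage. Values after ± are SDs over the 3 arrays, and the number of arrays limits the precision of every value. The arrays share the same regions, so these SDs do not include the spread from region to region.

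The isolated regions lay at a median of 381 kb from the nearest other region (quartiles 301 and 544 kb), against 14.7 kb for the other autosomal regions. Of the 581, 175 were more than 500 kb away and 40 more than 1 Mb. In 319 cases the next tiled region on at least 1 side was itself isolated. The longest row held 9 consecutive isolated regions and spanned 9.38 Mb of chromosome 15 (13103232 to 22478990, mm9). In that row 1 region was higher and 4 were lower than the array median in the test described below, which called 28.0% of all tiled regions higher and 38.1% lower. Chromosome 12 had the largest share of isolated regions (36 of 908, 3.97%) and chromosome 11 the smallest (19 of 2237, 0.849%). The array places probes by position on mouse build mm9 and names no genes, so whether these stretches are poor in genes was not analysed here. Runs of 1 or 2 probes, which are not counted as regions, lay within 250 kb of 78 isolated regions.

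In tiled length the isolated regions were close to the rest. Their median length was 1355 bp (quartiles 1195 and 1424 bp) with 15 probes, against 1341 bp (1112 and 1415 bp) with 14 probes. Regions of 1000 to 1800 bp, called standard below, made up 72.3% of isolated and 68.5% of other regions. Short regions (at most 600 bp) made up 8.78% and 10.9%, intermediate ones (between short and standard) 9.64% and 9.89%, and long ones (over 1800 bp) 9.29% and 10.8%. Length is fixed by the array design and has no replicates, so these are descriptions without a test. The longest isolated region covered 4563 bp of chromosome 9 (61218977 to 61223539), where the level was -0.42, -0.58 and -0.35 on the arrays, below 0 on each of them (mean -0.45 ± 0.12, limma adjusted p = 0.0055, 50 probes). This call was lost with loess (-0.15, limma adjusted p = 0.23), with the series matrix values (-0.16, 0.21) and without replicate 2 (0.085), and the level was 0.25 when both channels had to clear background.

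Isolated regions were also dimmer in all length classes but the short one. With length class matched, their log2 input signal was lower by -0.22, -0.23 and -0.23 on the 3 arrays and their log2 bound signal by -0.29, -0.28 and -0.26. Input was well above background on all arrays for 61.1% of the 8397 probes in isolated regions and for 66.0% of those in other regions, and bound DNA for 37.6% and 44.0%. Short isolated regions were instead brighter than other short regions, by 0.11 ± 0.07 in log2 input and 0.42 ± 0.04 in log2 bound signal. A probe without bound signal gives an upper limit of the ratio only where its input is measured. Where both channels are dim it gives no such limit. Of the probes in isolated regions, 36.0% were dim in the bound channel on each array and 17.1% in both channels. In other autosomal regions these shares were 30.9% and 13.65%. A probe dim in the bound channel on each array was present in 537 of the 581 isolated and 23368 of the 27094 other autosomal regions. The part of this dimness in the calls of single regions was not tested.

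The first comparison asked how many isolated regions carried more or less bound DNA than the median probe. Of the 581, 132 (22.7%) were higher and 237 (40.8%) lower (limma's 1-group test over all 28880 regions, Benjamini-Hochberg adjusted p under 0.05), and 212 passed in neither direction. Over all tiled regions 28.0% were higher and 38.1% lower. The share of higher isolated regions thus lay below that background, and the share of lower ones was near it. Among these calls, 43 isolated regions lay 2-fold or more above the median (7.40%, background 8.84%) and 44 lay 2-fold or more below it (7.57%, background 8.12%). The split depends on the zero point. With the mode of each array's distribution as zero, 44 isolated regions were higher (7.57%, background 9.48%) and 456 lower (78.5%, background 74.4%), and when both channels of a probe had to clear background, which selects on bound signal, 206 of the 432 isolated regions that kept enough probes were higher (47.7%, background 51.8%) and 110 lower (25.5%, background 22.6%). Nearly all lower isolated regions (230 of 237) held a probe dim in the bound channel on each array, as did 537 of all 581 isolated regions. Most of these levels thus rest in part on probes without measured bound DNA. Of the higher isolated regions, 88 of 132 held a probe dim in both channels on each array, a count not given here for other regions.

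The sign of the level was the same on all arrays for 453 isolated regions (78.0%). Pearson's r between arrays over the 581 regions was 0.89 to 0.92, where regions are not independent replicates. The median region was at -0.16, with quartiles of -0.58 and 0.27, against -0.11, -0.56 and 0.37 for other regions.

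The second comparison set the mean level of isolated regions against other autosomal regions of the same length class. The direction differed between classes. Standard isolated regions averaged -0.16, -0.14 and -0.16 on the 3 arrays and other standard regions -0.03, -0.03 and -0.06, so every isolated value lay below every other value. The difference was -0.11 ± 0.02 (n = 3 arrays, 420 against 18557 regions). This is small beside the spread among regions, which had an SD of 0.62 for isolated and 0.71 for other standard regions. Long isolated regions averaged -0.38, -0.37 and -0.37 against -0.30, -0.32 and -0.30, a difference of -0.07 ± 0.02 over 54 regions. That difference was 0.000411 with loess normalisation and 0.0016 when medians over regions replaced means, so its direction did not hold.

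Short isolated regions went the other way. Their mean was 0.42, 0.44 and 0.40 on the arrays, above the 0.15, 0.14 and 0.06 of other short regions, a difference of 0.30 ± 0.03 (51 against 2941 regions). This excess came from few regions. Of the 51, 15 (29.4%) exceeded 1 and 9 exceeded 2 on the log2 scale, against 462 (15.7%) and 103 of the 2941 other short regions. The median regions, by their mean over arrays, stood at 0.09 and 0.06. Of the 9 regions above 2, 4 lay on chromosome 1 and 2 on chromosome 13, and 8 had only 3 or 4 probes. Leaving out each autosome in turn gave differences from 0.12 (without chromosome 1) to 0.39 (without chromosome 5), with 0.20 without chromosome 13. Without both chromosomes 1 and 13, chosen because they hold most of these 9 regions, so that a fall was fixed by the choice, it was -0.02 ± 0.04. With at least 5 probes required per region it was 0.09, and with medians over regions in place of means 0.14 ± 0.15.

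Intermediate isolated regions were higher by 0.15 ± 0.03 (56 against 2679 regions). The series matrix gave the opposite direction for them, a difference of -0.12. Matched over all 4 length classes, the isolated regions differed from the others by -0.06, -0.04 and -0.03 on the arrays, a mean of -0.05 ± 0.02. An exact permutation test that flips the signs of the 3 arrays (two-sided) cannot go below p = 0.25, and each of these differences had that p, so no difference of this kind can pass a threshold of 0.05 here. Matched on quartiles of input signal, the difference was 0.28 in short, 0.17 in intermediate and -0.05 in long regions, and -0.03 over all classes. With only probes of measurable input it was 0.36, 0.16, -0.08 and -0.08. The difference in standard regions kept its sign in every alternative run. It was -0.06 with normexp, -0.17 with the series matrix values, -0.14 when only probes with measurable input were kept, -0.07 when both channels had to clear background and -0.10 when matched on quartiles of input signal.

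**Figure D1:**
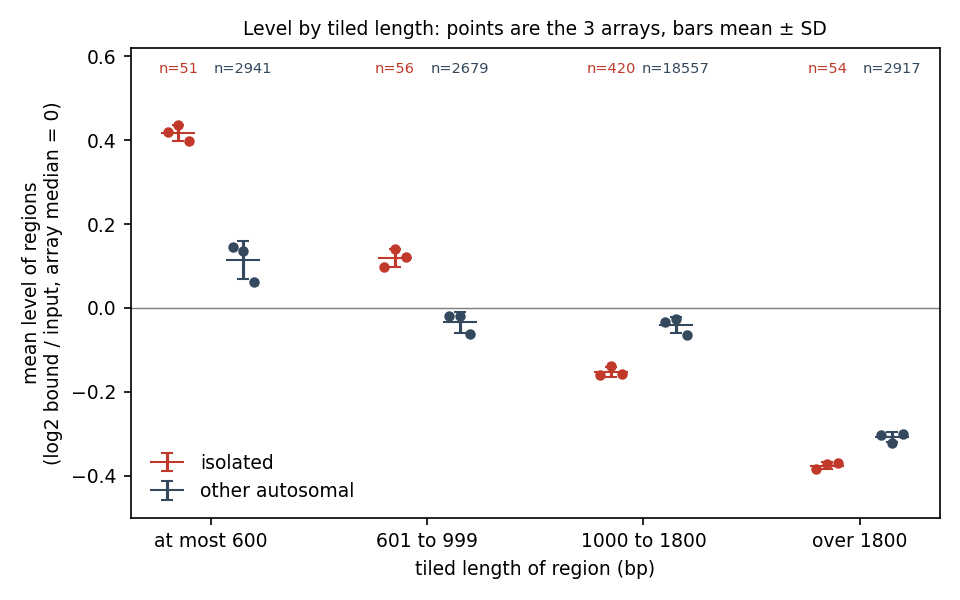
Mean level (log2 bound over input, array median at 0, vertical axis) of isolated (red) and other autosomal regions (dark) in 4 classes of tiled length (bp, horizontal axis). Points are the 3 arrays and bars the mean ± SD. Short isolated regions (0.42 ± 0.02) lay above other short regions (0.11 ± 0.05) and standard isolated regions (-0.15 ± 0.01) below other standard regions (-0.04 ± 0.02).

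**Figure D2:**
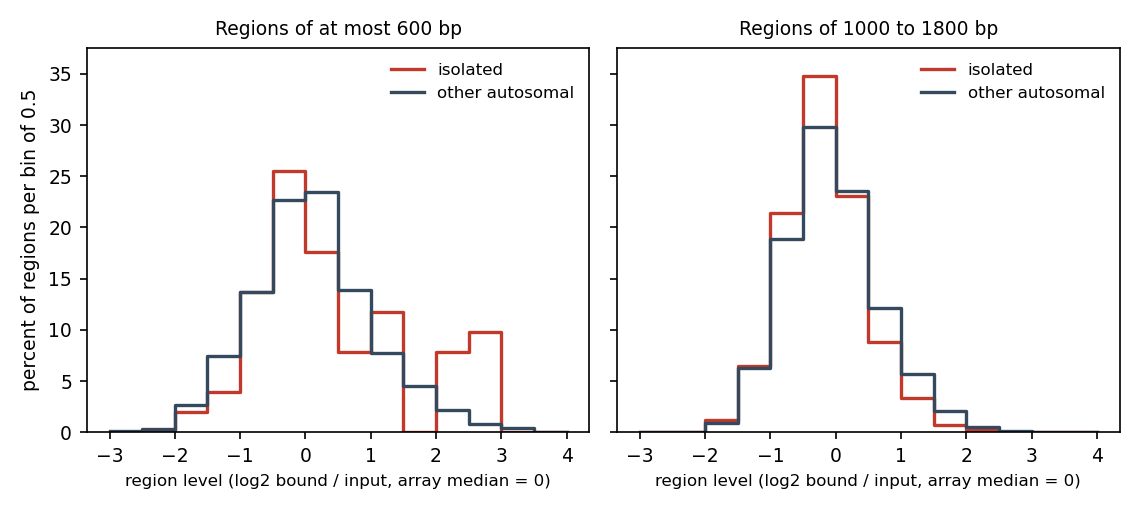
Share of regions (percent, vertical axis) by level (log2 bound over input in steps of 0.5, horizontal axis) for short regions (left) and standard regions (right), isolated in red and other autosomal in dark. Among short isolated regions 9 of 51 exceeded 2, against 103 of 2941 other short regions, while standard isolated regions were fewer above 1 (4.29% against 8.40%).

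Among standard regions, 85 of 420 isolated ones (20.2%) were higher than the median and 168 lower by limma's adjusted p, against 28.2% and 37.1% of other standard regions. At least 2-fold higher levels were found in 18 isolated standard regions (4.29%), against 8.40% of the others, and at least 2-fold lower ones in 32 (7.62% against 7.20%). By chromosome, isolated standard regions were lower than the other standard regions of the same chromosome on all 3 arrays in 11 of 19 autosomes and higher on all 3 in 2, chromosomes 17 and 18. Chromosome 15 differed most, with a mean of -0.46 ± 0.05 over 24 isolated regions against 0.01 for the others. Leaving out each chromosome in turn gave a difference between -0.12 and -0.09. Single chromosomes were not tested.

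The level of standard regions was lower in each class of distance to the nearest other region than in the class before it, on each array. It was -0.02 ± 0.02 under 10 kb (6221 regions), -0.04 ± 0.02 at 10 to 50 kb, -0.07 ± 0.02 at 50 to 100 kb and -0.12 ± 0.02 at 100 to 250 kb. Past the limit of 250 kb it was -0.13 ± 0.02 up to 500 kb (308 regions), -0.20 ± 0.05 from 500 kb to 1 Mb (89 regions) and -0.29 ± 0.06 beyond 1 Mb (23 regions). Values of single arrays overlapped between neighbouring classes up to 100 kb, and between the classes on both sides of 250 kb, but not between the other neighbours. The difference between the farthest and the nearest class was -0.27 over the 3 arrays (-0.35 with the series matrix values, -0.15 with normexp and -0.27 with only probes of measurable input). Among the isolated standard regions alone the distance and the level were nearly unrelated from region to region (Spearman's rho = -0.07 over 420 regions, which share the arrays). Log2 input signal also varied over these classes, from 9.25 under 10 kb to 8.75 at 500 kb to 1 Mb and 9.08 beyond 1 Mb.

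The third comparison asked whether the dip in the middle of standard regions was present in isolated ones. The centre is the mean of probes within 200 bp of the midpoint and the edges the mean of those beyond 500 bp. A minimum of 2 probes in centre and in edges, and of 8 in the region, left 394 isolated and 17203 other autosomal regions. In isolated regions the centre averaged -0.28, -0.20 and -0.24 on the arrays and the edges -0.03, -0.07 and -0.09. The centre was thus lower than the edges on each array (-0.25, -0.14 and -0.15, mean -0.18 ± 0.06). In other regions the centre stood at -0.20 ± 0.04 and the edges at 0.10 ± 0.05, a dip of -0.30 ± 0.08. Isolated regions therefore had a shallower dip, by 0.14, 0.12 and 0.10 on the arrays (mean 0.12 ± 0.02, exact permutation p = 0.25, the smallest possible). The 2 sets of regions differed mostly at the edges, where isolated regions were lower by -0.16 ± 0.02, and less at the centre, where they were lower by -0.05 ± 0.003.

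Region by region, limma's adjusted p called a lower centre in 120 of 394 isolated regions (30.5%, background 33.5% of 18326 regions) and a higher centre in 73 (18.5%, background 14.7%). Among these calls, 82 (20.8%) had a centre 2-fold or more below the edges and 42 (10.66%) 2-fold or more above, against 22.6% and 7.68% of other autosomal regions. Without replicate 2, 45 isolated regions had a higher centre, and the share over all regions in that fit is not given here. The shallower dip kept its sign in every alternative run, with 0.05 under normexp, 0.24 when only probes with measurable input were kept, 0.22 when both channels had to clear background, 0.10 when matched on input quartiles and 0.13 when matched by chromosome. It was 0.02 with isolation set at 100 kb and 0.25 at 500 kb.

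The profile in steps of 100 bp showed where the 2 sets parted. Within 100 bp of the midpoint the probes of isolated regions averaged -0.29 ± 0.01 and those of other regions -0.21 ± 0.04. At 200 to 300 bp the values were -0.28 ± 0.03 and -0.14 ± 0.02, at 400 to 500 bp -0.12 ± 0.03 and 0.05 ± 0.03, and at 600 to 700 bp -0.09 ± 0.05 and 0.11 ± 0.05. The mean of other regions crossed the array median between 300 and 500 bp, and that of isolated regions stayed below it at each step to 700 bp. Bound DNA was above background on all arrays for 35.8% of isolated and 39.8% of other probes within 100 bp, and for 38.4% and 47.4% at 600 to 700 bp.

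**Figure D3:**
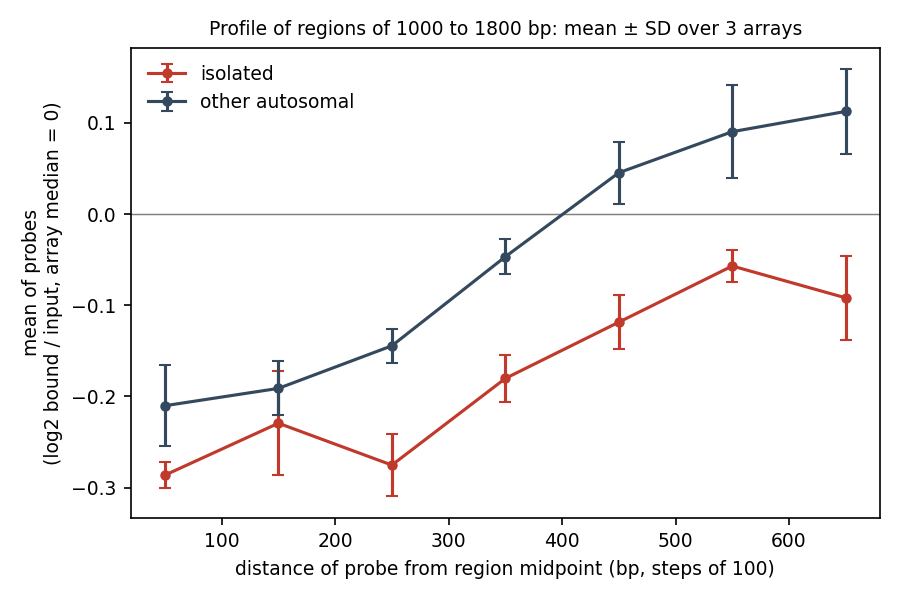
Mean log2 bound over input (vertical axis, array median at 0) by distance of the probe from the midpoint of standard regions (bp, horizontal axis), for isolated (red) and other autosomal regions (dark). Points are means and bars SDs over the 3 arrays. The isolated profile ran from -0.29 at the midpoint to -0.09 at 600 to 700 bp and the other from -0.21 to 0.11.

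The dip was smaller in the more remote classes past 100 kb, though not with every set of values. Centre minus edges was -0.26 ± 0.08 under 10 kb, -0.31 ± 0.08 at 10 to 50 kb and -0.34 ± 0.09 at 50 to 100 kb. It was -0.31 ± 0.07 at 100 to 250 kb and -0.23 ± 0.05 at 250 to 500 kb (292 regions). The dip under 10 kb thus overlapped that at 250 to 500 kb within the spread, though it was deeper on each array. Over the 102 regions beyond 500 kb centre minus edges was -0.16, 0.04 and -0.02 on the arrays, so its sign differed between them. In those regions the edges stood at -0.24 ± 0.02 and the centre at -0.28 ± 0.10. In non-isolated regions the edges stood at 0.10 ± 0.05 and the centre at -0.20 ± 0.04, so the edges were farther apart than their spread over arrays, whereas the centres overlapped within it. The centres did not overlap with the series matrix values (-0.33 ± 0.05 beyond 500 kb, -0.11 ± 0.01 in non-isolated regions) or when only probes with measurable input were kept (-0.58 ± 0.09 and -0.30 ± 0.08). Bound DNA was above background on all arrays at 36.3% of edge probes beyond 500 kb and 47.5% in non-isolated regions, and its part in this difference was not tested. With the series matrix values the dip was -0.20 ± 0.10 beyond 500 kb and -0.22 ± 0.02 at 250 to 500 kb, which did not differ beyond their spread, against -0.33 ± 0.04 in non-isolated regions. When both channels had to clear background the centre was higher than the edges by 0.19 ± 0.15, but only 22 regions kept enough probes. In single regions beyond 500 kb, the centre was lower in 19 and higher in 17 of the 80 up to 1 Mb, and lower in 6 and higher in 7 of the 22 beyond it, where the background is 33.5% lower and 14.7% higher.

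**Figure D4:**
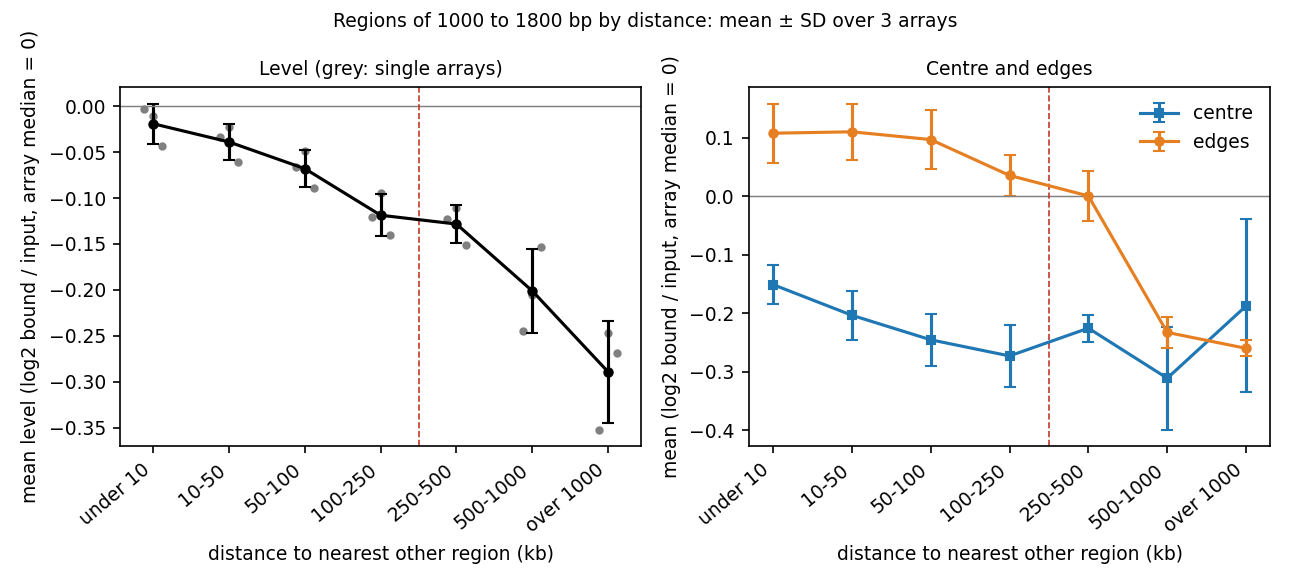
Standard regions by distance to the nearest other region (kb, horizontal axis), with isolated regions right of the dashed line. Left, mean level (log2 bound over input, grey points single arrays); right, centre (blue) and edges (orange); bars are SDs over the 3 arrays. The level went from -0.02 under 10 kb to -0.29 beyond 1 Mb, and the edges from 0.11 to -0.26.

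Single regions show what these means are made of. Positions are on mm9. Ranks were given only to regions in which each probe cleared background in both channels on 1 or more arrays, a condition met by 40 isolated regions (31 higher, 7 lower) and more easily by those with few probes. Unranked isolated regions went further, up to 3.33 in an intermediate region and down to -1.92 in a standard one. The highest ranked region was a stretch of 356 bp on chromosome 1 (116831125 to 116831480, 3 probes), 749.8 kb from its neighbour. Its log2 ratio was 3.09, 3.01 and 2.77 on the arrays, high on each of them, which is 7.75-fold above the median probe (2.95 ± 0.17, limma adjusted p = 1.95e-08). Next came 404 bp of chromosome 13 (86865358 to 86865761) with 2.91, 2.97 and 2.48 (mean 2.79 ± 0.27). The isolated region that follows it on that chromosome (87596282 to 87596585) was also among the 8 highest, at 2.33, 2.35 and 2.44 (mean 2.37 ± 0.06). Both held 3 probes.

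Chromosome 1 held another pair of the 8, at 96366393 to 96366606 with 2.74 ± 0.26 and at 41239446 to 41239961 with 2.55 ± 0.39. The region of chromosome 6 from 74455089 to 74455324, with 1.99 Mb of untiled sequence on its other side and 1.04 Mb on the near one, was at 2.87, 2.65 and 2.45 (mean 2.65 ± 0.21, 4 probes). The region on chromosome 2 from 16881547 to 16881853 was at 2.18 ± 0.38. The choice required the same sign on all 3 arrays and an adjusted p under 0.05, so agreement between arrays is no result here. The largest limma adjusted p among the 8 was 2.89e-07. Their sizes depended on the processing, and the region of chromosome 1 at 96366393, for example, ranged from 0.99 to 3.29 over the alternatives.

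The exception among the 8 in length was a region of 1669 bp on chromosome 4 (83937503 to 83939171), with 20 probes, all 60 bound and 54 of 60 input measurements above background. Its level was 2.51, 2.49 and 1.94 (mean 2.31 ± 0.33, limma adjusted p = 1.36e-07). It was enriched along its whole length, with single probes from 1.12 ± 0.51 at one end to 3.05 ± 0.34 near the midpoint and 1.24 ± 0.38 at the other end. Its centre (2.72 ± 0.22) exceeded its edges (1.74 ± 0.40) by 0.98 ± 0.28 (limma adjusted p = 0.00618). Values of this difference under the alternatives are not given here. With a nearest distance of 254 kb the region was just past the limit of isolation.

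Only 6 isolated regions met the conditions for the lowest. The other lower region that met the condition on background, on chromosome 12 (91049751 to 91051090), was above 0 on replicate 1 (0.098). The lowest ranked region was on chromosome 2 from 176194714 to 176195203, with -1.92, -2.11 and -1.49 over 3 probes (mean -1.84 ± 0.32, limma adjusted p = 5.93e-07). There 6 of 9 bound measurements were above background, so that the value is in part an upper limit. A stretch of 204 bp on chromosome 14 (43936999 to 43937202) was at -1.05, -1.05 and -0.81 (mean -0.97 ± 0.13). The region of 1377 bp on chromosome 7 from 129814086 to 129815462 was at -0.76, -0.91 and -0.93 (mean -0.87 ± 0.09, 15 probes). The other 3, on chromosomes 3 (56694495 to 56694921), 6 (31999082 to 32000422) and 18 (45718589 to 45719897), were at -0.50 ± 0.18, -0.46 ± 0.22 and -0.32 ± 0.18. All 3 lost their call with the series matrix values (-0.25, -0.09 and 0.12) and when both channels had to clear background (-0.23, -0.24 and -0.23). Those of chromosomes 6 and 18 also lost it without replicate 2 (limma adjusted p = 0.087 and 0.20), and that of chromosome 18 without replicate 3 (0.18).

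The clearest dip among the ranked regions was that region of chromosome 6 (31999082 to 32000422), 485 kb from its neighbour. Its first probe, centred at -640.5 bp from the midpoint, was at 0.69 ± 0.31. The probes then went down to -0.69 ± 0.22 at -347.5 bp and -1.61 ± 0.62 at -38 bp, and back up to 0.51 ± 0.67 at 582 bp past the midpoint. The centre (-1.25 ± 0.45) was below the edges (0.43 ± 0.32) by -1.65, -2.32 and -1.10 on the arrays (mean -1.69 ± 0.61, limma adjusted p = 0.000457). Bound DNA cleared background in 40 of 48 measurements there. Values of centre minus edges under the alternatives are not given here for this region.

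The next 3 by the same rule differed by less and were not all dips. On chromosome 4 from 127647985 to 127649349 the contrast was -0.69 ± 0.14, but the outermost probe stood at 1.52 ± 0.27 on one side and at 0.05 ± 0.70 on the other, a step rather than a dip. On chromosome 17 from 62955886 to 62957284, which had 3.80 Mb without another region on one side, the contrast was -0.68 ± 0.10, and the outermost probe stood at 1.90 ± 0.14 on the side of that gap and at 0.27 ± 0.13 on the far side. On chromosome 12 from 91049751 to 91051090 the contrast was -0.80 ± 0.49 and single probes had SDs of up to 1.24. By limma's adjusted p these 3 contrasts passed 0.05 (0.0328, 0.0344 and 0.0253), but each missed it without replicate 2 (limma adjusted p of 0.11, 0.14 and 0.20) and without replicate 3 (0.090, 0.083 and 0.11), and the first 2 also without replicate 1 (0.098 and 0.086). With loess the contrasts of chromosomes 17 and 12 missed it too (0.43 and 0.23), and with normexp that of chromosome 12 (0.068).

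Among the ranked regions the opposite shape, a middle higher than the edges, was clearest in that of chromosome 7 from 129814086 to 129815462. The outer probes were at -2.49 ± 0.59 and -0.45 ± 0.34 and the middle ones between 0.07 ± 0.53 and 0.54 ± 0.15. These middle means lay above the array median but below the mode of each array, which was 0.575 to 0.775 above the median. The centre (0.38 ± 0.07) exceeded the edges (-1.65 ± 0.14) by 2.09, 2.20 and 1.79 (mean 2.03 ± 0.21, limma adjusted p = 7.06e-05). There 40 of 45 bound measurements cleared background. The region of chromosome 18 from 45718589 to 45719897 had its peak past the midpoint, at 1.52 ± 0.42, and edges of -1.28 ± 0.59. Its contrast was 0.88, 2.13 and 1.14 (mean 1.38 ± 0.66, limma adjusted p = 0.00182). Values under the alternatives are not given here for this contrast or for that of the region at 129814086. On chromosome 7 from 103669713 to 103671051 the centre (1.14 ± 0.18) exceeded the edges (0.38 ± 0.42) by 0.76 ± 0.30, with limma adjusted p = 0.0244, but 0.12 without replicate 2, 0.14 without replicate 3 and 0.24 with loess.

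**Figure D5:**
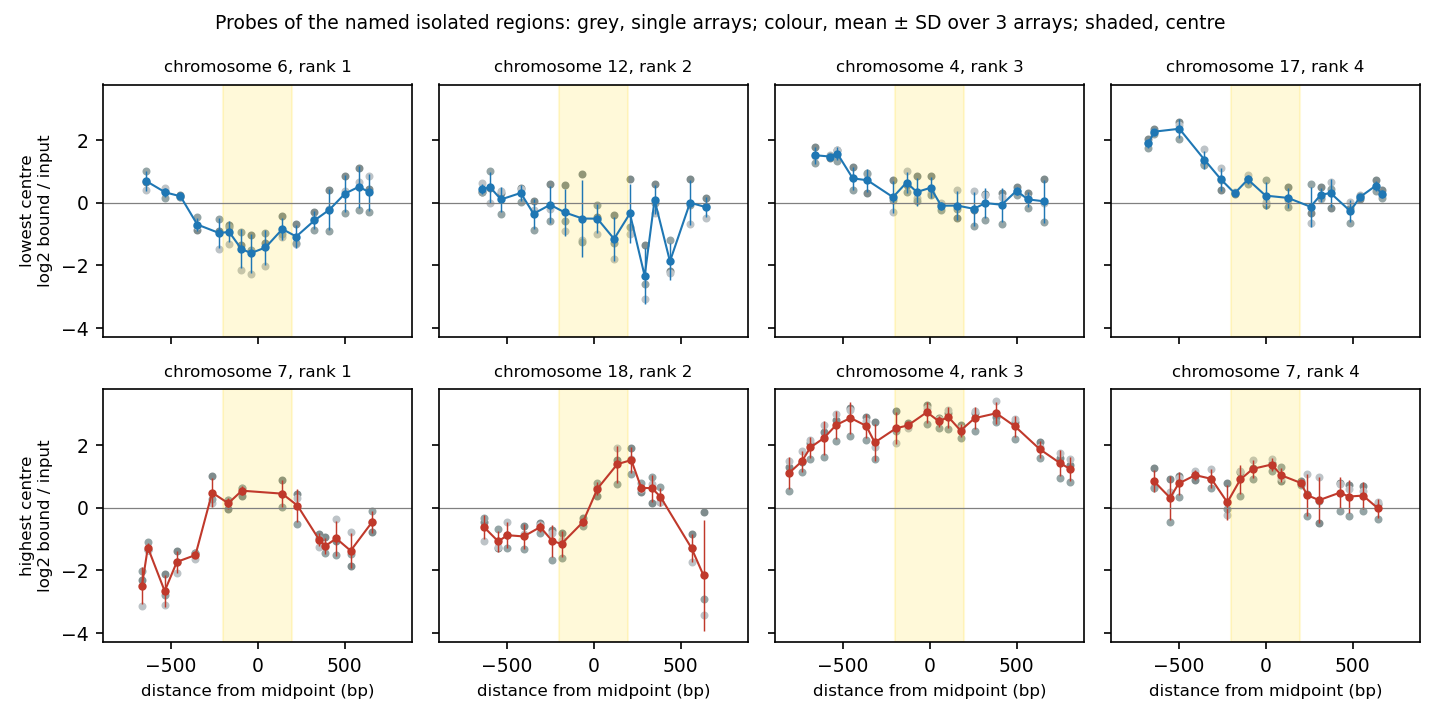
Log2 bound over input of each probe (vertical axis) by distance from the midpoint (bp, horizontal axis). Shown are the 4 lowest (top) and 4 highest (bottom) centres relative to edges among the ranked isolated regions. Ranked regions are those in which each probe cleared background in both channels on 1 or more arrays. Grey points are single arrays, coloured points the mean ± SD over 3 arrays, and shading marks the centre. The first panel shows a dip to -1.61, and the panel of chromosome 7, rank 1, a middle of up to 0.54 between lower edges.

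The most remote region of all, on chromosome 5 from 58108098 to 58110519, had 3.61 Mb without another tiled region on one side and 4.09 Mb on the other. Its level was -1.03, -1.14 and -0.93, low on every array (mean -1.03 ± 0.10, limma adjusted p = 1.21e-05, 28 probes). Bound DNA was above background in 39 of its 84 measurements and input in 77, so the input was well measured and the ratio is an upper limit at many probes. Low levels were also found at the remote regions of chromosome 8 (101939343 to 101941593, 2.16 Mb, -1.04 ± 0.12), chromosome 4 (28739103 to 28740582, 1.89 Mb, -1.24 ± 0.13), chromosome 12 (47920436 to 47920937, 1.74 Mb, -0.84 ± 0.39), chromosome 14 (84842148 to 84843557, 2.65 Mb, -0.75 ± 0.12) and chromosome 17 (93597605 to 93598981, 1.55 Mb, -0.35 ± 0.08), each lower in 3 of 3 arrays with a limma adjusted p of 0.0196 or less. The call on chromosome 17 was lost without replicate 2 and without replicate 3 (limma adjusted p = 0.072 and 0.073). When both channels had to clear background, the regions of chromosomes 5 and 4 were at -0.12 and -0.15 and no longer passed (limma adjusted p = 0.39 and 0.31). The region of chromosome 3 from 24230783 to 24232127 (1.80 Mb) was at -0.43, -0.17 and -0.03 and did not pass (limma adjusted p = 0.155). The last of the 8 most remote, on chromosome 14 from 113713544 to 113714041 (1.64 Mb), was higher instead, at 1.00, 1.23 and 1.34 (mean 1.19 ± 0.17, limma adjusted p = 5.45e-06), with 9 of 21 measurements above background in each channel. Thus 6 of the 8 most remote regions were lower, against 38.1% of all regions. Those of chromosomes 5 and 8 were long regions, a class in which 55.2% of other autosomal regions were lower. All 8 were chosen by distance alone.

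Over all 40 isolated regions beyond 1 Mb, 52.5% were lower and 12.5% higher (background 38.1% and 28.0%), and their mean was -0.37, -0.26 and -0.24 on the arrays. These shares are not matched by length. Of the 23 standard regions among the 40, 43.5% were lower and 8.70% higher, against 37.1% and 28.2% of other standard regions. Across the limit of 250 kb the mean of standard regions differed little, from -0.12 ± 0.02 at 100 to 250 kb to -0.13 ± 0.02 at 250 to 500 kb. The 3 isolated regions nearest to that limit, on chromosomes 6 (82351120 to 82352661), 11 (16156500 to 16157994) and 2 (19830224 to 19831509), were at -1.24, -0.40 and -0.32. That of chromosome 2, which the condition on brightness left unranked, had a centre of -1.21 ± 0.67 below edges of 0.77 ± 0.17. The 3 just outside the limit, on chromosomes 18 (33622689 to 33624859) and 7 (65663033 to 65664228 and 65912373 to 65913738), were at -0.17, -0.24 and 0.61. So few regions cannot show whether levels change at the limit. The second and the third longest isolated regions, 4375 bp of chromosome 2 (149653721 to 149658095) and 3817 bp of chromosome 18 (75526037 to 75529853), were at -0.61 ± 0.14 and -0.18 ± 0.04, and the latter did not pass limma's threshold (adjusted p = 0.198).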

How the data were processed

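DNA was analysed from 3 arrays of 1 group. Per the labels' protocols, 2 µg of DNA per pool was sonicated, captured with 10 µg of antibody and 50 µl of protein G, and amplified, which can distort representation. Per the file headers, the deposited intensity values come from Agilent's Feature Extraction software (version 10.7.3.1, build mm9, NCBI37). They are background-subtracted, spatially detrended and scaled with 1 linear dye factor per channel, and the header of replicate 2 alone gives an average of 0 for the red channel's multiplicative detrending surface. The deposited log10 ratio column was not used. The authors' series matrix gives log2 ratios (column medians -0.97) by a normalisation not given in the sources used here. They tracked bound over input spot medians (r of 0.999 or more).

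The log2 ratio of processed bound over input signal was centred on each array's median, outlier spots (10, 17 and 12 per array) were left out, and 409597 placed probes were joined into regions. Tests were limma 3.58.1 (R 4.3.3) over all regions and exact sign-flip permutation over arrays; the fit was tested on simulated data. Normexp (offset 50) used spot medians in place of the planned spot means. Probe filters kept the zero of the full arrays. The named regions were, where 8 or 4 could be found, the 8 highest and lowest and the 4 with the lowest and highest centre. These were picked only among regions past the threshold that met the condition on brightness and had the same sign on all 3 arrays. To them were added the 8 most remote, the 3 on each side of the 250 kb limit and the 3 longest. Members, classes and rules were chosen with earlier results of these data known. No mm9 sequence or gene annotation was used, so no sequence or gene name is given.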

Additional observations from a re-analysis of the deposited data

Results flagged for a closer look

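The difference between isolated and other regions ran in opposite directions in 2 length classes on every array. It was 0.30 in short regions (0.27, 0.30 and 0.33 on the arrays) and -0.11 in standard regions (-0.13, -0.11 and -0.09). The gap between these differences was 0.41 ± 0.01, and its exact permutation p (two-sided, signs of the arrays flipped) was 0.25, the smallest that 3 arrays allow. The short regions numbered 51, and leaving out each autosome in turn gave differences between 0.12 and 0.39.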

How the results depend on the processing

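No paired analysis was possible because the labels give 1 group, so that no replicate number pairs samples between groups. Bound with input DNA, and isolated with other regions, were compared within each array throughout. Matching on probe length, filters combined with normexp or the series matrix, removal of probes below background in both channels, medians over regions, runs of 1 or 2 probes as neighbours, leaving out chromosomes and the alternatives for input signal were chosen after the data were seen. Counts of 132 higher, 237 lower, 120 lower-centre and 73 higher-centre isolated regions became 206, 110, 41 and 38 with both channels above background, 499, 862, 515 and 245 with isolation at 100 kb (2169 regions) and 36, 85, 25 and 24 at 500 kb (175 regions). The mode as zero gave 44 higher and 456 lower regions, and the series matrix limited to probes with measurable input gave 205 higher. With 1 replicate left out, higher-centre regions numbered 45 to 67. Shares over all regions for these alternative counts are given above only for level calls with the mode as zero or both channels above background. The other counts cannot be read as particular to isolated regions. The difference reversed for long regions to 0.000411 with loess and 0.0016 with medians, and for intermediate regions to -0.123 with the series matrix. The other differences kept their direction in the settings run, in their mean over arrays. The short excess lay between 0.085 and 0.65. The exception was -0.02 without chromosomes 1 and 13, which were chosen for their high short regions. With medians over regions the short excess was 0.14 ± 0.15 (exact permutation p = 0.5), so its direction was not the same on every array. Of 318 values for 32 named regions, 266 kept direction and side of the threshold, 41 fell short of it, 3 newly passed and 8 reversed. These values include centre minus edges only for the regions of chromosomes 12 (91049751), 4 (127647985), 17 (62955886) and 7 (103669713). The level reversed on chromosome 18 at 45718589 (0.116) and chromosome 12 at 91049751 (0.072) with the series matrix, on chromosome 4 at 127647985 (-0.20) with the mode as zero, on chromosome 18 at 75526037 with loess (0.175) and with both channels above background (0.53), and under that filter also on chromosomes 3 at 24230783 (0.68), 2 at 19830224 (0.34) and 9 at 61218977 (0.25). That filter removes probes dim in either channel, and so selects on bound signal. Levels did not rise under it in every named region. The causes of these reversals were not tested.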
